A study of Homo sapiens with 8 samples.

Results

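The effect of shUHRF1 in UF1hypo cells was compared with its effect in HCT116 cells, gene by gene, to ask where the same hairpin moved transcripts differently, or in opposite directions, in the 2 lines. The difference was taken as the knockdown effect in UF1hypo minus the knockdown effect in HCT116. Each knockdown effect was the mean log2(TPM + 1) of the shUHRF1 libraries minus that of the shScr libraries, so all 8 libraries of the series entered the difference. Of 19942 protein-coding genes, 13781 had a TPM (a level corrected for transcript length and summing to an equal amount in all libraries) above 1 in at least 1 library, and these were tested. HCT116 is a human colorectal cancer cell line with both UHRF1 alleles. UF1hypo is a single clone of HCT116 in which exon 4 of a single UHRF1 allele was replaced by an IRES-neo cassette that Cre recombinase then removed, so the difference of effects describes this clone. Each line carried the scrambled hairpin shScr or the UHRF1 hairpin shUHRF1 as a puromycin-selected pool, with 2 libraries of polyA RNA in each of the 4 groups. The labels name the line of every library as HCT116 in their cell line field and give UF1hypo in the title, and the harvest day of these libraries is not named in the sources used here. Nothing says that the 2 libraries of a group came from separate cultures, so the p-values measure the spread between these libraries, which may be technical. The libraries come from bulk cells, so a change in the share of cells that express a gene and a change in its RNA per cell cannot be told apart.

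UHRF1 is a multi-domain protein that binds hemimethylated DNA behind the replication fork, ubiquitinates histone H3 and recruits the maintenance methyltransferase DNMT1, so that its loss is followed by passive loss of DNA methylation. Silenced germline genes, endogenous retroviruses and interferon-stimulated genes are well known to be expressed after such a loss. The integrated stress response is a separate route, in which kinases that sense amino acid shortage, viral RNA or misfolded protein phosphorylate the initiation factor eIF2 and thereby favour translation of the transcription factor ATF4, whose targets encode amino acid transporters, biosynthetic enzymes and feedback regulators.

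A gene was called when the Benjamini-Hochberg adjusted p-value of its difference, from a single limma fit over all libraries, was below 0.05 and its absolute difference was above 1 on the log2(TPM + 1) scale. By this rule 702 genes (5.09% of those tested) were called. Of these, 625 (4.54%) responded more positively in UF1hypo and 77 (0.559%) more negatively. Among all tested genes the median difference was 0.08, with medians of -0.03 for the effect in HCT116 and 0.04 for the effect in UF1hypo. The genes closest to the threshold were NCALD and COX6C just inside and EPHB2 and TMEM229B just outside (limma adjusted p = 0.0506 and 0.0507). The positive share of the calls was 89.0%, and it was 75.3% after quantile normalization, which moved the median difference to -0.07, and 77.4% after correcting for transcript length and GC content. A fit with a library left out leaves a single library in its group, so that group's spread no longer enters the shared error term. Counts of calls from such fits, here and below, are not directly comparable with the main count. The gap between replicates was widest in UF1hypo shUHRF1 (median absolute difference of 0.453, against 0.117 to 0.161 in the other groups). The median difference was 0.16 without replicate 1 of UF1hypo shUHRF1 and 0.04 without replicate 2 of that group. With any single library of the other groups left out, between 171 and 273 genes were called.

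Depth, recovered from the tables as aligned bases, was between 5.42 and 7.84 gigabases per library. Pearson's r between replicates across genes was 0.992 and 0.991 in the HCT116 groups, 0.991 in UF1hypo shScr and 0.956 in UF1hypo shUHRF1. The gap between the 2 UF1hypo shUHRF1 libraries tracked transcript GC content across 12480 genes (Spearman's rho of 0.828), and rho was -0.54 for UF1hypo shScr. The difference of effects itself had a rho of 0.287 with GC content. Median GC content was 55.1% in genes with a called positive difference, 49.6% in those with a called negative difference and 49.6% in all tested genes. The part of GC content in the calls was not tested beyond the correction given above. Of the epithelial markers, 5 of 8 had a TPM above 1 in every group, while CEACAM5, VIL1 and CDX1 stayed below 1. The summed TPM of 10 leukocyte markers was 13.5 to 15.1 with shScr and 7.86 to 8.44 with shUHRF1 in HCT116, and 40.6 to 43.2 with shScr and 82.1 to 115 with shUHRF1 in UF1hypo, most of it from CD68. Called markers were CDH1, of 5 tested epithelial markers, and CD68 and CD3D, both leukocyte markers that were tested. CD3D exceeded a TPM of 1 only in UF1hypo shUHRF1, so the filter selected it through that group. PTPRC, the pan-leukocyte marker, was listed at 0 in 6 libraries and reached 0.0561 and 0.0728 with shUHRF1 in UF1hypo. The summed TPM of 8 fibroblast and endothelial markers ran from 21.3 in HCT116 shScr to 66.1 in UF1hypo shUHRF1, with 1 marker tested and none called. The part of other cells in the differences was not tested.

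UHRF1 itself (chromosome 19, 4903080 to 4962154 in GRCh38, plus strand) had a TPM of 87.5 and 98.4 with shScr, then 31.7 and 32.7 with shUHRF1 in HCT116, and 47.3 and 50.6, then 34.1 and 21.1 in UF1hypo. All values of single genes are given in this order, shScr and then shUHRF1. Its libraries did not overlap between shScr and shUHRF1 in either line. UF1hypo carries a disrupted UHRF1 allele, and any RNA from that allele may be counted in these gene-level values. They are therefore not a measure of intact UHRF1, and the share of each allele was not tested. By protein blots, the paper reports low residual UHRF1 in UF1hypo and a further sharp fall with knockdown. The RNA values thus do not show in which line the protein fell further or ended lower. The effect on UHRF1 RNA was -1.50 ± 0.22 (SE) in HCT116 and -0.84 ± 0.22 in UF1hypo, and the difference of 0.66 ± 0.31 was not called (limma adjusted p = 0.316). The fit gives each gene a single spread shared by all groups, so its SE is the same in both lines. All SEs and p-values here thus take no account of the wider gap between replicates in UF1hypo shUHRF1.

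The called genes fell into a few patterns by whether the shUHRF1 libraries lay outside the shScr libraries in each line. Over all tested genes, the 2 shUHRF1 libraries both lay below the shScr libraries in 27.9% and above them in 20.2% of genes in HCT116. In UF1hypo they both lay above in 30.5% and below in 18.3%. Of the 625 positive genes, 278 were higher with shUHRF1 in UF1hypo and overlapped in HCT116, 150 were higher in both lines, and 191 were higher in UF1hypo but lower in HCT116. Only 6 of the 625 were lower in HCT116 and overlapped in UF1hypo. Of the 77 negative genes, 57 were lower in UF1hypo but higher in HCT116, 13 overlapped in HCT116, and 7 were lower in both lines. The 191 and 57 genes are the ones that moved in opposite directions, and together they make 248 (1.8% of all tested genes).

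**Figure D1:**
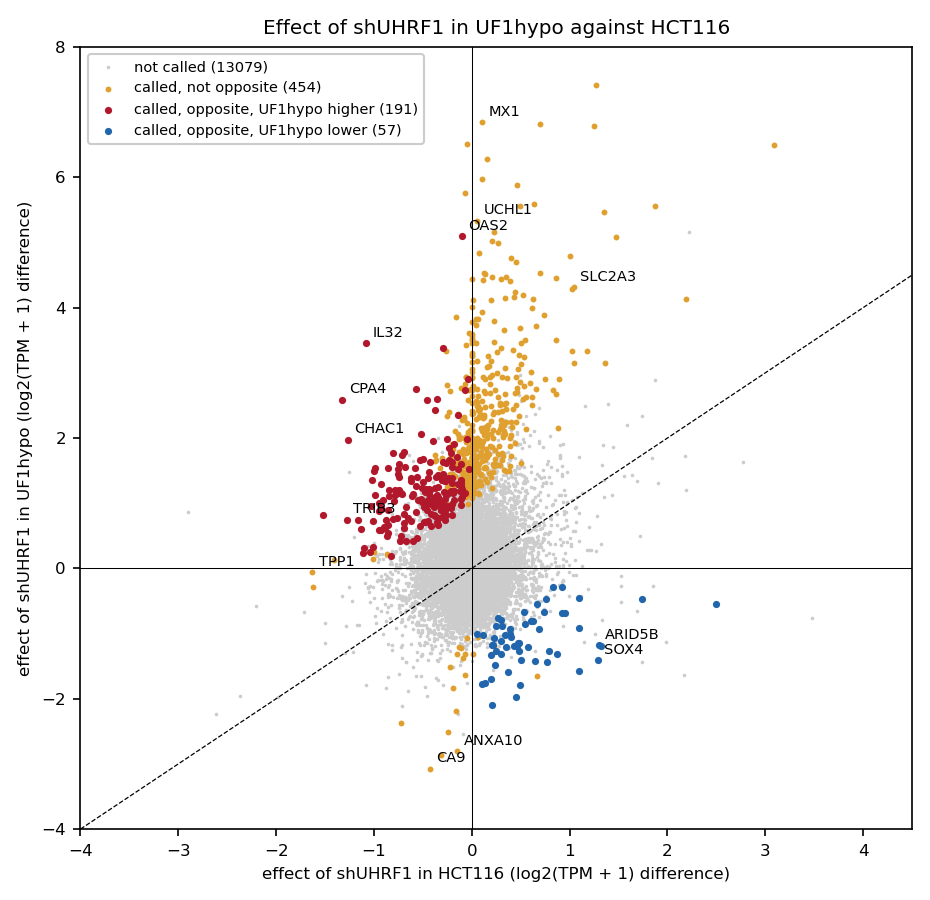
Effect of shUHRF1 in HCT116 (horizontal) against its effect in UF1hypo (vertical), both as the difference of mean log2(TPM + 1), for 13781 genes. Grey points were not called, orange points were called without opposite directions, and red and blue points are the 191 and 57 called genes that moved in opposite directions. The dashed line marks equal effects, and most orange points lie close to the vertical axis at 0.

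Opposite movement without regard to the call was seen in 1401 genes (10.2%), with 956 (6.94%) lower in HCT116 and higher in UF1hypo and 445 (3.23%) the other way. Most of these movements were small in at least 1 line. Among the 191 called genes that were higher in UF1hypo, the median effects were -0.44 in HCT116 and 1.12 in UF1hypo. Among the 57 that were lower in UF1hypo, they were 0.48 and -1.14. The lesser of the 2 absolute effects was above 0.5 in 72 and 21 of them, and above 1 in 5 and 4. Of the 248 opposite and called genes, 211 were still opposite and called after correcting for length and GC content. Of the 93 genes above 0.5, which were chosen for larger effects in both lines, 91 were. Of all 248, 184 had a TPM above 1 in every library, so most were not genes at the edge of detection. With 1 library left out, the opposite and called genes numbered between 55 and 85 for the HCT116 and UF1hypo shScr libraries, 416 without UF1hypo shUHRF1 replicate 1 and 764 without replicate 2.

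ATF4 targets were the list with the most genes that moved in opposite directions. Of 48 listed, 47 were tested and 15 were called, all positive, where 4.54% of all tested genes were called positive. Among those tested, 3 exceeded a TPM of 1 only in UF1hypo shUHRF1, and 2 of the 15 calls came from these. Of the 47, 21 moved in opposite directions against 10.2% of all tested genes, and all 21 were lower in HCT116 and higher in UF1hypo, where 6.94% of all tested genes were. The list's median effect was -0.49 in HCT116 and 0.31 in UF1hypo, with a median difference of 0.81. The shUHRF1 libraries both lay below the shScr libraries in HCT116 for 40 of the 47 genes and both above them in UF1hypo for 26, against 27.9% and 30.5% of all tested genes. After correcting for length and GC content, 16 of the list were called positive, 1 was called negative and 13 were opposite and called. With single HCT116 or UF1hypo shScr libraries left out, the list held 4 to 9 calls, and it held 17 and 19 without UF1hypo shUHRF1 replicate 1 and replicate 2.

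Promoter sequence of 5 called ATF4 targets is shown because they hold the 8 letters TGATGNAA, the core of the composite element bound by ATF4 with C/EBP proteins. Promoter windows ran from 250 bases before to 50 after each start site in RefSeq (GRCh38.p14), both strands were searched, and 10930 of the tested genes had a window. The match is in capitals, read 5′ to 3′ along the gene's strand, and a match on the other strand shows as its reverse complement. The whole window is given for CHAC1 and the stretch around the match for the others.

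CHAC1 (chr15:40953221-40953520, plus strand): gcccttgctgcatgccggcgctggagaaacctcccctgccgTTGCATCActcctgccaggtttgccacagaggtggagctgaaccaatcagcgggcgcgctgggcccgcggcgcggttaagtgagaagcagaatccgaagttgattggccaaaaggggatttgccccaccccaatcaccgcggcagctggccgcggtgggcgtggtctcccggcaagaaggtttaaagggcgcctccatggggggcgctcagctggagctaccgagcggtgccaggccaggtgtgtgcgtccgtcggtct
JDP2 (chr14:75427966-75428053, plus strand): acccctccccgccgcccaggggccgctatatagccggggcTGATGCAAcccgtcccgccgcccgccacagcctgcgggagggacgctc
SLC1A4 (chr2:64989352-64989439, plus strand): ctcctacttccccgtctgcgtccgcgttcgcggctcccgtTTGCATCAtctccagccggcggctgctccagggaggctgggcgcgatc
SLC3A2 (chr11:62881696-62881748, plus strand): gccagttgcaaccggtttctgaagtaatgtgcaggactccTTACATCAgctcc
ATF3 (chr1:212565176-212565263, plus strand): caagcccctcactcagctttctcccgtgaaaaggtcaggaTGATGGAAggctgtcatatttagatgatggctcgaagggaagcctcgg

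These letters were present in a window of 15 of 39 ATF4 targets (38.5%) and in 5 of the 14 called ones with a window (35.7%), against 2.75% of all tested genes. Of the 149 opposite and called genes that were higher in UF1hypo, 13 (8.72%) held them, and of the 137 of these outside the list 8 did (5.84%). Such a match is a description of letters and not a test of binding, and the list was itself drawn from known ATF4 targets.

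Regulators and effectors of the response were in the opposite group. Of the members described here, CHAC1, TRIB3, JDP2, ATF5 and STC2 were named by the rule for named genes, and the others after their values were seen. CHAC1, a glutathione-degrading enzyme and well-known ATF4 target (chromosome 15, 40952962 to 40956512, plus strand), had a TPM of 77.6 and 76.0, then 33.8 and 29.1 in HCT116, and 16.8 and 18.1, then 75.2 and 68.2 in UF1hypo. Its level in UF1hypo was thus about that of the HCT116 control only when shUHRF1 was present. The difference was 3.24 ± 0.22 (limma adjusted p = 0.000208), and it was called in all 8 fits with a library left out. DDIT3, which encodes CHOP, a transcription factor of the stress response, had a TPM of 26.0 and 25.6, then 13.4 and 16.5 in HCT116, and 22.7 and 17.2, then 41.7 and 48.9 in UF1hypo. Neither line overlapped between hairpins, and the difference was 1.91 ± 0.29 (limma adjusted p = 0.00863). TRIB3, a pseudokinase that restrains ATF4 output, went from 172 and 154 to 70.0 and 63.2 in HCT116 and from 33.9 and 41.2 to 82.0 and 49.2 in UF1hypo. In this gene the UF1hypo libraries with shUHRF1 reached only the level of HCT116 with shUHRF1. Its difference was 2.03 ± 0.34 (limma adjusted p = 0.0128).

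Several amino acid transporters showed the pattern at high levels, but not all. SLC7A5 and SLC3A2 encode the light and heavy chains of the large neutral amino acid transporter. SLC7A5 had a TPM of 806 and 748, then 445 and 399 in HCT116, and 330 and 357, then 668 and 493 in UF1hypo. SLC3A2 had 633 and 609, then 401 and 387 in HCT116, and 308 and 353, then 660 and 488 in UF1hypo. Both subunits stood lowest in UF1hypo shScr. Their differences were 1.62 ± 0.24 and 1.43 ± 0.23 (limma adjusted p = 0.00786 and 0.0118). The neutral amino acid transporter SLC1A4 and the glycine transporter SLC6A9 had differences of 1.85 ± 0.32 and 1.52 ± 0.30 (limma adjusted p = 0.0152 and 0.0257). SLC7A11, the cystine transporter subunit, had a TPM of 38.7 and 31.3, then 14.6 and 14.4 in HCT116, and 7.09 and 5.63, then 5.45 and 15.3 in UF1hypo, so its UF1hypo libraries overlapped and its difference of 1.69 ± 0.54 was not called (limma adjusted p = 0.13). SLC38A2, another abundant neutral amino acid transporter, lay below shScr with shUHRF1 in both lines, at 764 and 707, then 618 and 543 in HCT116, and 528 and 411, then 81.3 and 246 in UF1hypo, with a difference of -1.37 ± 0.59 (limma adjusted p = 0.265).

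Of the secreted factors, STC2, stanniocalcin, went from 74.8 and 73.6 to 36.1 and 35.3 in HCT116 and from 35.0 and 33.0 to 73.1 and 61.0 in UF1hypo. Its levels thus nearly exchanged between the lines, with a difference of 1.99 ± 0.22 (limma adjusted p = 0.00202) that was called in all 8 fits with a library left out. The bZIP transcription factors of the list were less uniform. JDP2 had a TPM of 11.1 and 13.7, then 7.33 and 5.62 in HCT116, and 7.88 and 9.80, then 22.2 and 21.0 in UF1hypo, a difference of 2.05 ± 0.31 (limma adjusted p = 0.00863). ATF3 was opposite only by a narrow margin, since its HCT116 libraries were at 36.1 and 34.8, then 34.4 and 32.8, while its UF1hypo libraries went from 31.3 and 23.5 to 58.1 and 66.0, a difference of 1.23 ± 0.26 (limma adjusted p = 0.0323). ATF5 was called but not opposite, since its shUHRF1 libraries lay above shScr in both lines, with effects of 0.19 ± 0.17 in HCT116 and 2.26 ± 0.17 in UF1hypo.

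**Figure D2:**
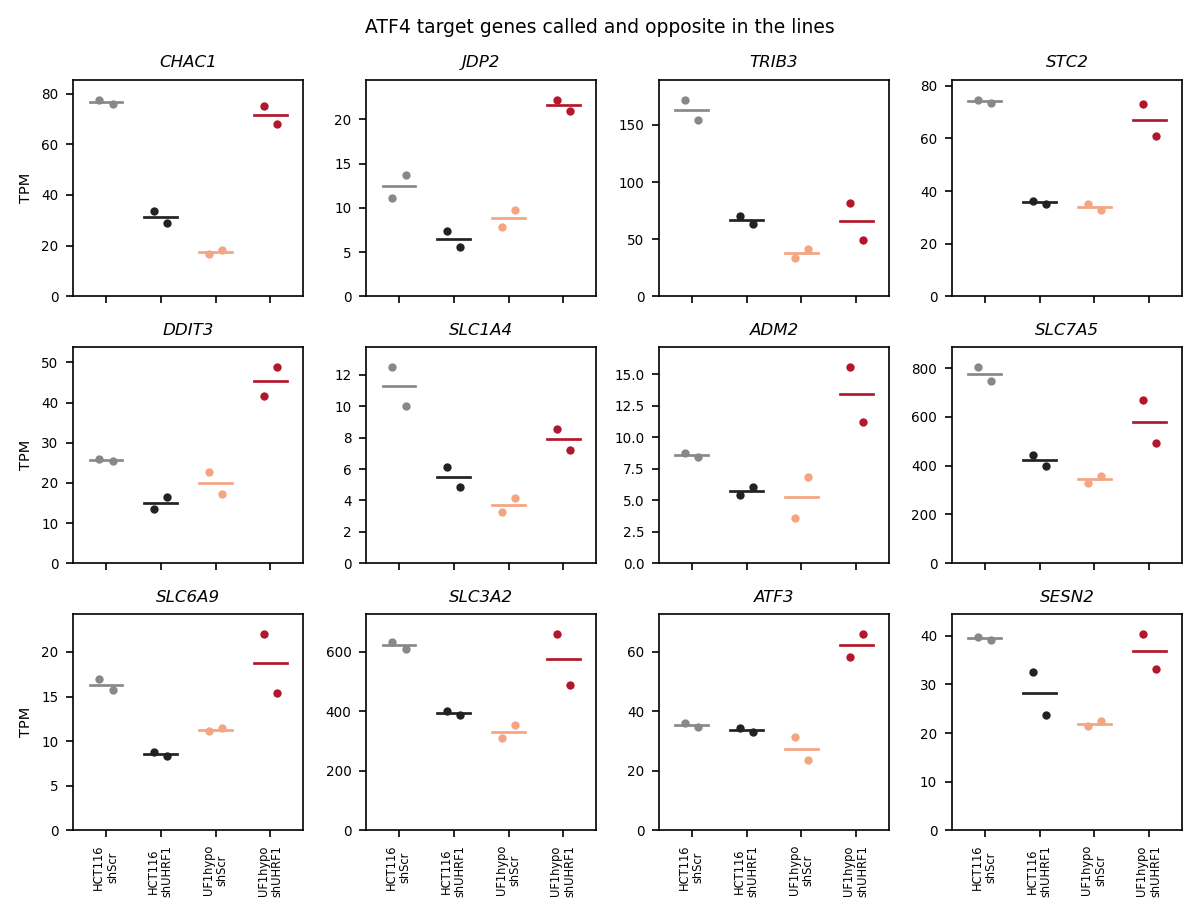
TPM of the 12 ATF4 targets that were called and opposite, 1 panel per gene, with the 2 libraries of each group as points and their mean as a bar, on linear axes from 0. In every panel the shUHRF1 libraries lie below shScr in HCT116 and above shScr in UF1hypo, as for SLC7A5 with 445 and 399 against 806 and 748 in HCT116 and 668 and 493 against 330 and 357 in UF1hypo.

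SESN2, which restrains mTORC1 signalling, and ADM2, a peptide hormone, were the remaining called and opposite members, with differences of 1.21 ± 0.28 and 1.75 ± 0.40. NUPR1 and CBS were called without opposite movement from low levels, and CBS has a near-identical copy that can share its reads. Several biosynthetic enzymes of the list, in contrast, were lower with shUHRF1 in HCT116 but were not called. ASNS, asparagine synthetase, had a TPM of 357 and 312, then 175 and 162 in HCT116, and 84.7 and 80.6, then 76.7 and 120 in UF1hypo, with a difference of 1.196 ± 0.29 (limma adjusted p = 0.0566). PSAT1, of the serine pathway, had 359 and 334, then 212 and 204 in HCT116, and 115 and 98.5, then 88.5 and 158 in UF1hypo, with a difference of 0.88 ± 0.35 (limma adjusted p = 0.217). PHGDH and SHMT2, of the serine pathway as well, had differences of 0.01 ± 0.30 and 0.30 ± 0.23. In ASNS and PSAT1 the UF1hypo shUHRF1 replicates lay on either side of shScr. ATF4 mRNA itself was 660 and 712, then 478 and 500 in HCT116, and 342 and 345, then 339 and 334 in UF1hypo, and its difference of 0.46 ± 0.17 was not called (limma adjusted p = 0.196). Translation of ATF4, on which the response turns, was not measured. None of the transcripts of the eIF2 kinases EIF2AK1, EIF2AK2, EIF2AK3 and EIF2AK4 was called, with adjusted p-values of 0.55, 0.906, 0.871 and 0.953. The unfolded protein response genes of the endoplasmic reticulum, a list of 24 with 23 tested, held no called gene, and their median difference was 0.12. Of the 23, 4 moved in opposite directions without being called, all higher in UF1hypo, where 6.94% of all tested genes were.

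These opposite movements started from unequal levels. With shScr, 45 of the 47 tested ATF4 targets were lower in UF1hypo than in HCT116, with a median gap of -0.68, and with shUHRF1 24 were lower and the median gap was -0.01. Of the 15 called members, 14 were lower in UF1hypo with shScr and 13 crossed to higher with shUHRF1. For comparison, 7396 of all 13781 tested genes were lower in UF1hypo with shScr, and 2278 crossed to higher. The gap with shScr and the difference of effects share the shScr libraries, so the 2 quantities are not independent. Among the 191 opposite genes that were higher in UF1hypo, 107 started lower in UF1hypo and 104 of them crossed, while the gap widened in 84. Interferon-stimulated genes had a median gap of 1.97 with shScr and 3.82 with shUHRF1.

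**Figure D3:**
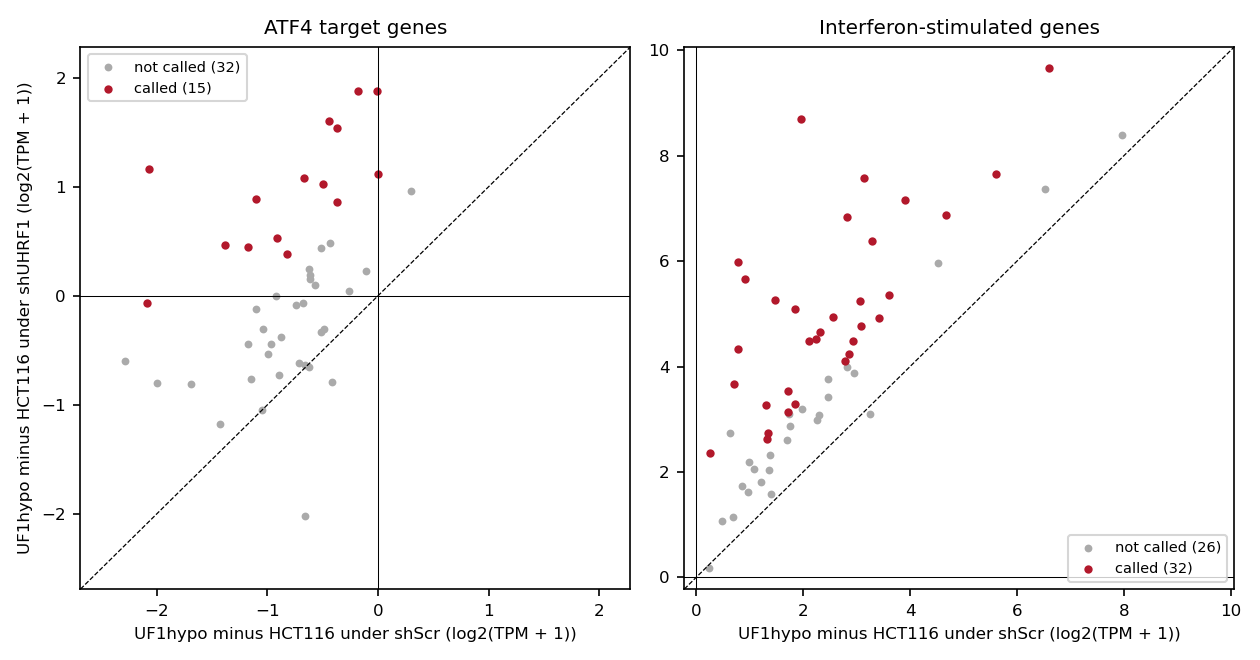
Gap between the lines, UF1hypo minus HCT116 in mean log2(TPM + 1), with shScr (horizontal) against shUHRF1 (vertical), for 47 ATF4 targets (left) and 58 interferon-stimulated genes (right). Red points were called in the difference of effects (15 and 32), which is the height above the dashed line of equal gaps. The ATF4 targets lie left of 0 on the horizontal axis in 45 of 47 cases.

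Outside this list, the gene with the largest lesser effect in the opposite direction was CPA4, a secreted carboxypeptidase (chromosome 7, 130293134 to 130324180, plus strand). It had a TPM of 26.9 and 24.7, then 8.46 and 11.1 in HCT116, and 67.6 and 60.7, then 406 and 376 in UF1hypo. Its level was higher in UF1hypo with both hairpins and the gap between the lines widened, and its difference was 3.91 ± 0.25 (limma adjusted p = 0.000157). HBEGF, a ligand of the EGF receptor, went from 14.7 and 14.2 to 6.67 and 6.76 in HCT116 and from 6.74 and 7.95 to 23.2 and 21.7 in UF1hypo, with a difference of 2.50 ± 0.26 (limma adjusted p = 0.00147). UPP1, uridine phosphorylase, went from 34.5 and 34.8 to 18.0 and 16.1 in HCT116 and from 11.4 and 11.3 to 28.9 and 23.1 in UF1hypo, with a difference of 2.11 ± 0.26 (limma adjusted p = 0.0033). In both genes UF1hypo started below HCT116 and ended above it. LAT2, an adaptor of immune receptor signalling, had a difference of 2.38 ± 0.27 and KLF2, a Krüppel-like transcription factor, one of 1.95 ± 0.27 (limma adjusted p = 0.00219 and 0.00632). IL32, a cytokine induced by NF-kB, had a difference of 4.54 ± 0.80 (limma adjusted p = 0.0165), but its 2 libraries of UF1hypo shUHRF1 were at 33.7 and 10.1 and those of UF1hypo shScr at 1.85 and 0.122. CD22 and MAGEB17 were the others of the 10 with the largest lesser effects, with differences of 2.22 ± 0.43 and 2.52 ± 0.38.

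Further opposite genes were described as single genes, and except for LAMB3 and FOSL1 they were chosen after their values were seen. LAMB3 and LAMC1, which encode laminin chains of the basement membrane, were both opposite and called, with differences of 1.83 ± 0.31 and 1.18 ± 0.22 (limma adjusted p = 0.0149 and 0.0226). LAMA3, another laminin chain, was at 4.69 and 5.59, then 3.58 and 4.05 in HCT116, and 9.46 and 9.44, then 9.33 and 9.58 in UF1hypo, and was not called (limma adjusted p = 0.574). JUN and FOSL1, subunits of the AP-1 factor, had differences of 1.83 ± 0.34 and 1.43 ± 0.28 (limma adjusted p = 0.0204 and 0.0265), JUN going from 43.8 and 38.7 to 28.0 and 32.0 in HCT116 and from 69.3 and 44.8 to 173 and 125 in UF1hypo. IL15RA and IL6R, which encode cytokine receptor chains, had differences of 2.33 ± 0.30 and 1.75 ± 0.27 (limma adjusted p = 0.00427 and 0.00942). IL15RA showed the largest drop in HCT116 of the 191 genes, from 13.9 and 12.3 to 4.36 and 3.50, against 22.0 and 18.0 to 39.9 and 31.9 in UF1hypo.

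Genes that moved the other way were fewer. SOX4, a SOX-family transcription factor (chromosome 6, 21593751 to 21598619, plus strand), had a TPM of 42.9 and 40.8, then 107 and 100 in HCT116, and 22.2 and 20.2, then 6.11 and 8.81 in UF1hypo. The 4 groups did not overlap, and the difference was -2.70 ± 0.27 (limma adjusted p = 0.00139). ARID5B, a chromatin regulator, started at the same level in both lines, with 3.45 and 3.27 in HCT116 and 3.70 and 2.72 in UF1hypo, and was at 9.95 and 9.48 in HCT116 shUHRF1 and 0.623 and 1.12 in UF1hypo shUHRF1, a difference of -2.47 ± 0.32 (limma adjusted p = 0.00436). ENC1, an actin-binding protein, had a difference of -2.01 ± 0.24 (limma adjusted p = 0.003). SAT1, which acetylates and thereby removes polyamines, was at 594 and 587, then 1043 and 993 in HCT116, and 732 and 753, then 229 and 414 in UF1hypo, a difference of -2.05 ± 0.34 (limma adjusted p = 0.0122). ABCC2, an efflux transporter and target of NRF2, had 63.3 and 63.8, then 119 and 99.9 in HCT116, and 58.4 and 57.4, then 16.9 and 25.7 in UF1hypo, a difference of -2.20 ± 0.29 (limma adjusted p = 0.00533). ARID5B and ABCC2 thus showed nearly equal controls and divergent knockdowns. METTL7A, SELENOP, SESTD1 and UTP14C of the same group were low, none above a TPM of 7.87 in any library, and UTP14C is an intronless copy of another gene, so its reads may be shared. TMSB15A had a difference of -2.66 ± 0.52 with 2.03 and 6.21 in UF1hypo shUHRF1.

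**Figure D4:**
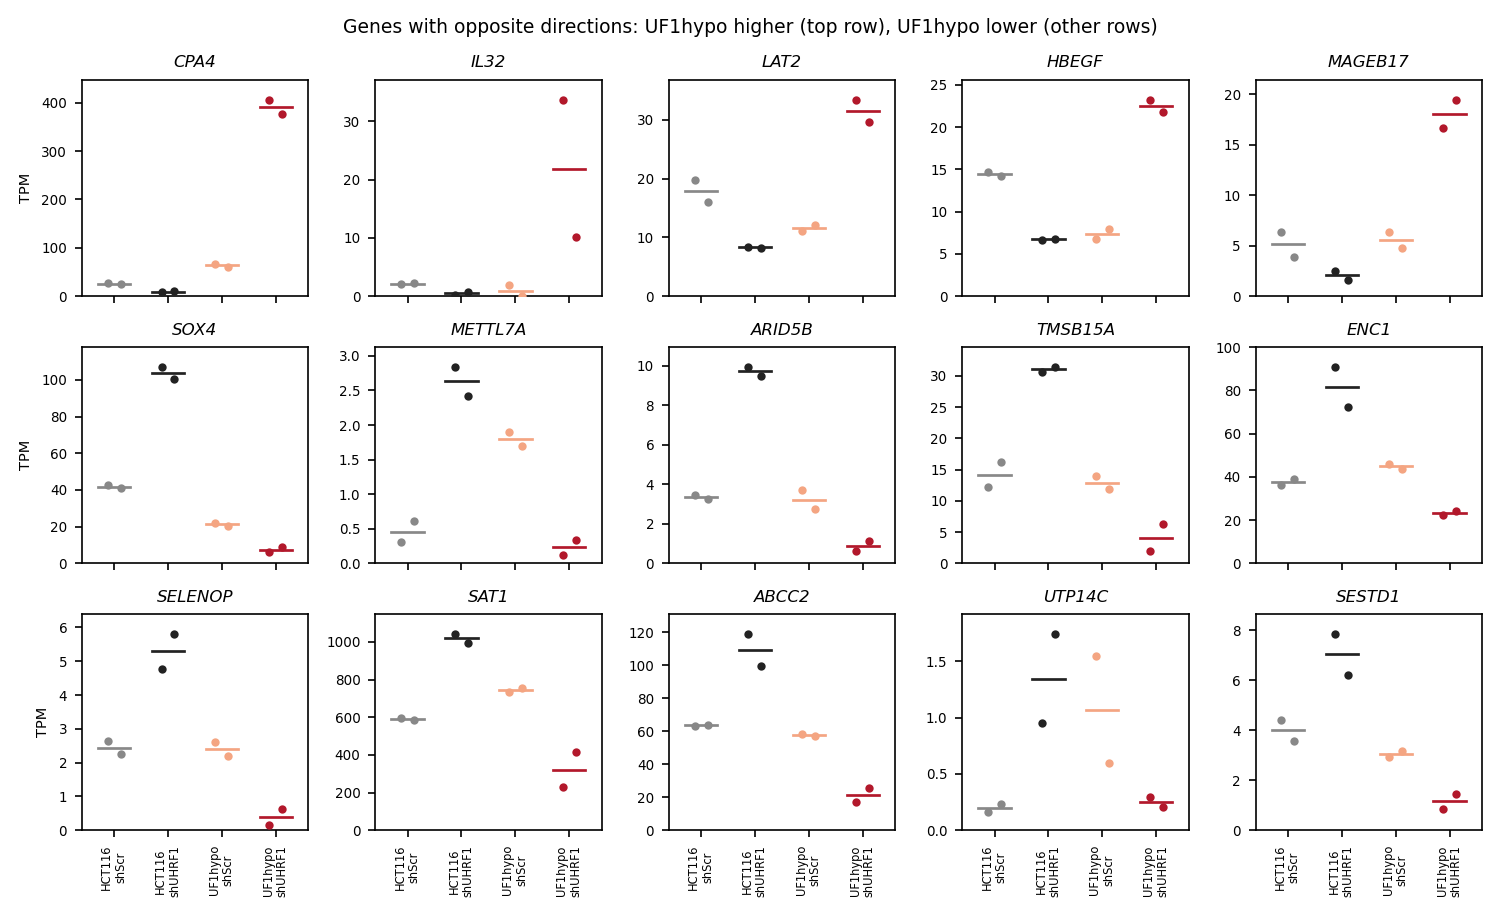
TPM of genes that moved in opposite directions, 1 panel per gene, with the 2 libraries of each group as points and their mean as a bar, on linear axes from 0. The top row holds 5 genes that were higher with shUHRF1 in UF1hypo, and the other rows the 10 that were lower in UF1hypo with the largest lesser effect. In SOX4, HCT116 shUHRF1 stands at 107 and 100 and UF1hypo shUHRF1 at 6.11 and 8.81.

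The p53 targets lay mostly above their controls in HCT116 and on both sides of them in UF1hypo. Of 30 listed, 29 were tested, the effect was below 0 in 2 of them in HCT116 and above 0 in 17 in UF1hypo, and the median effects were 0.45 and 0.08, with a median difference of -0.34 where all tested genes had 0.08. Called were 2 members, both negative and opposite, where 0.559% of all tested genes were called negative. CDKN1A, the cell cycle inhibitor p21, had a TPM of 285 and 307, then 520 and 485 in HCT116, and 426 and 455, then 357 and 283 in UF1hypo, with a difference of -1.23 ± 0.21 (limma adjusted p = 0.0148). BTG2, an antiproliferative p53 target, had 22.5 and 25.1, then 46.4 and 45.5 in HCT116, and 30.9 and 32.5, then 25.2 and 26.5 in UF1hypo, with a difference of -1.21 ± 0.22 (limma adjusted p = 0.0194). Each of these calls held in 2 of the 8 fits with a library left out and in all 12 other settings. MDM2, the p53 antagonist, was at 45.8 and 44.8, then 63.3 and 62.9 in HCT116, and at 48.6 and 44.5, then 48.6 and 114 in UF1hypo, and was not called (limma adjusted p = 0.881).

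Homeobox genes of the HOXA cluster were also among the genes that were lower in UF1hypo, and were likewise named after their values were seen. Of 11 HOXA genes tested, 6 were opposite in this direction (3.23% of all tested genes) and 3 were called negative (0.559% of all tested genes), namely HOXA6, HOXA7 and HOXA9, which are neighbours on chromosome 7 between 27145396 and 27175180. HOXA9 had a TPM of 86.2 and 85.0, then 115 and 111 in HCT116, and 131 and 130, then 65.1 and 59.8 in UF1hypo, with a difference of -1.46 ± 0.19 (limma adjusted p = 0.0047). HOXA6 and HOXA7 had differences of -1.63 ± 0.36 and -1.32 ± 0.31 (limma adjusted p = 0.0412 and 0.0484). HOXA genes overlap one another in the annotation and the counting of shared reads by strand is not given in the sources used here, so their values are not fully separate. HOXA9 was called in all 8 fits with a library left out, and HOXA6 and HOXA7 in 2 each.

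Negative differences without opposite movement came from losses in UF1hypo that were small or absent in HCT116. ANXA10, an annexin, was at 121 and 119, then 121 and 96.0 in HCT116, and 62.5 and 70.2, then 6.42 and 11.5 in UF1hypo, a difference of -2.65 ± 0.35 (limma adjusted p = 0.00515). RAB26, a vesicle-trafficking GTPase, was at 19.0 and 22.4, then 16.6 and 16.1 in HCT116, and 40.1 and 52.0, then 5.93 and 4.90 in UF1hypo, a difference of -2.55 ± 0.29 (limma adjusted p = 0.00227). CA9, the hypoxia-induced carbonic anhydrase, had 4.86 and 6.52, then 3.57 and 4.32 in HCT116, against 13.0 and 16.1, then 1.38 and 0.42 in UF1hypo, a difference of -2.65 ± 0.41 (limma adjusted p = 0.00928). In all 3 genes shUHRF1 took UF1hypo from its own control level to below every HCT116 library. Of the 40 hypoxia and glycolysis genes listed, 38 were tested and CA9 and ANKRD37 were called negative, while SLC2A3, the glucose transporter GLUT3, was called positive with a difference of 3.28 ± 0.34 (limma adjusted p = 0.00143).

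Effects of the genes with a called positive difference were small in HCT116, with a median of 0 and quartiles of -0.27 and 0.14. Their median effect in UF1hypo was 1.69. Interferon-stimulated genes had 58 of 59 members tested and 32 called, all positive, against 4.54% of all tested genes, with a median effect of 0.05 in HCT116 and 1.74 in UF1hypo and a median difference of 1.43. Among the 58, 3 exceeded a TPM of 1 only in UF1hypo shUHRF1, and 2 of the 32 calls came from these. In UF1hypo the shUHRF1 libraries both lay above shScr in 54 of the 58, against 30.5% of all tested genes. With a single HCT116 or UF1hypo shScr library left out, 17 to 21 members were called, and 46 and 37 were called without UF1hypo shUHRF1 replicate 1 and replicate 2. MX1, a dynamin-like antiviral GTPase (chromosome 21, 41420020 to 41470071, plus strand), had the most positive difference of the called genes, 6.74 ± 0.26 (limma adjusted p = 4.06e-05), with a TPM of 0.308 and 0.435, then 0.517 and 0.435 in HCT116, and 4.22 and 4.49, then 637 and 595 in UF1hypo. Its promoter around the start site is shown because it holds the letters GAAANNGAA of the interferon-stimulated response element, here as 2 overlapping matches in capitals.

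MX1 (chr21:41420529-41420607, plus strand): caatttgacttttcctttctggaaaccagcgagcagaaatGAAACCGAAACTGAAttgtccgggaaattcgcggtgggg

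The letters GAAANNGAA were present in 33 of 48 interferon-stimulated genes with a window (68.8%) and in 17 of the 24 called ones (70.8%), against 8.56% of all tested genes and 12.2% of the 435 positive genes outside the list. HLA-B, ISG20, NLRC5 and EIF2AK2 were named here after their values were seen. Called members that moved in opposite directions were HLA-B, ISG20 and OAS2, which is 5.17% of the tested members against 1.8% of all tested genes. OAS2 was close to 0 in HCT116. HLA-B, a class I antigen-presenting molecule, was at 132 and 149, then 90.7 and 90.7 in HCT116, and 321 and 379, then 1011 and 776 in UF1hypo, with a difference of 1.96 ± 0.24 (limma adjusted p = 0.00329), and its reads can be shared with other class I genes. NLRC5, the activator of class I transcription, was opposite too and was named after its value was seen, at 6.22 and 5.80, then 3.90 and 4.79 in HCT116, and 13.0 and 15.5, then 71.2 and 47.0 in UF1hypo, a difference of 2.35 ± 0.34 (limma adjusted p = 0.00772). Not every member differed, and EIF2AK2, which encodes the RNA-sensing kinase PKR, had 30.0 and 81.8 in UF1hypo shUHRF1 against 50.3 and 41.6 in shScr and a difference of 0.19 ± 0.55.

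Cancer-testis genes, expressed in the germline and silenced elsewhere, had 22 of 40 members tested and 16 called, all positive and none opposite, where 4.54% of all tested genes were called positive. Of the 22, 11 exceeded a TPM of 1 only in UF1hypo shUHRF1, and 9 of the 16 calls came from these, so the filter itself selected members that are high in that group and the count is given as a description. PNMA5 was at 0.0724 and 0, then listed at 0 in both shUHRF1 libraries of HCT116, and at 0 and 0.0666, then 105 and 83.3 in UF1hypo, a difference of 6.56 ± 0.29 (limma adjusted p = 5.5e-05). MAGEA4, which the rule does not name, was higher with shUHRF1 in both lines. It was listed at 0 in both HCT116 shScr libraries and at 8.24 and 6.85 with shUHRF1. In UF1hypo it was at 1.01 and 1.91, then 206 and 227, a difference of 3.40 ± 0.33 (limma adjusted p = 0.00108). Members of the GAGE, MAGEA and CT45 families are near-identical copies, and how their reads were divided is uncertain. On the X chromosome, where many of these genes lie, 48 of 464 tested genes (10.3%) were called positive, against 4.54% of all tested genes. This count includes called members of the list, such as PNMA5 and MAGEA10, that exceeded a TPM of 1 only in UF1hypo shUHRF1. It is therefore not separate from the list's count and shares its limit. Of the study's 10 tumor suppressor genes, which the study chose on these samples and which are no independent evidence of direction, 6 were called, all positive and none opposite, and all 10 exceeded a TPM of 1 only in UF1hypo shUHRF1. UCHL1, a ubiquitin hydrolase, was listed at 0 in both shScr groups, at 0 and 0.0775 in HCT116 shUHRF1 and at 38.7 and 40.1 in UF1hypo shUHRF1, a difference of 5.28 ± 0.27 (limma adjusted p = 0.000105). Of all 625 positive genes, 259 had a TPM below 1 in every shScr library of both lines, and 62 were listed at 0 in all of these. Differences of such genes depend on the added 1, and at such levels a fall could hardly be seen.

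Of 28 YAP and TGF-beta targets, 25 were tested and 11 called, all positive, and 3 of them, F3, LATS2 and LTBP2, were opposite, against 4.54% called positive and 1.8% opposite and called among all tested genes. F3, tissue factor, was at 45.9 and 44.1, then 26.6 and 28.4 in HCT116, and 109 and 102, then 318 and 427 in UF1hypo, a difference of 2.48 ± 0.24 (limma adjusted p = 0.00109). LATS2 was named after its values were seen. Among the 25 tested members, 2 exceeded a TPM of 1 only in UF1hypo shUHRF1, and 1 of the 11 calls came from these. The list's count ran from 2 to 5 with a single HCT116 or UF1hypo shScr library left out, and it was 7 after quantile normalization and 5 with library weights, while it was 9 and 13 without UF1hypo shUHRF1 replicate 1 and replicate 2. Of 34 squamous and cornified envelope genes, 19 were tested and 8 called positive (4.54% of all tested genes), and 3 of the 8 exceeded a TPM of 1 only in UF1hypo shUHRF1. The called members were keratins and S100A7, led by KRT17 at 0.406 and 0.484, then 150 and 83.4 in UF1hypo and at most at 0.233 in HCT116, a difference of 6.14 ± 0.41 (limma adjusted p = 0.000176). TP63 and IVL, defining genes of that lineage, stayed below a TPM of 1 in all libraries. Of 30 intestinal genes, 14 were tested and 5 called positive (4.54% of all tested genes), and 3 of the 5 exceeded a TPM of 1 only in UF1hypo shUHRF1. KRT20, a called member that did so in every group, was at 9.28 and 9.06, then 75.0 and 111 in UF1hypo and 1.66 and 1.56, then 1.88 and 2.11 in HCT116, a difference of 2.98 ± 0.32 (limma adjusted p = 0.00179).

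Of the 702 called genes, by contrast, 6 had shUHRF1 libraries outside shScr in HCT116 and not in UF1hypo. Genes with this pattern that were not called are not counted here. All 6 but TPP1, which the rule names, were chosen after their values were seen. The 6 were TPP1, CALB2, NT5E, BCAR3, ANXA3 and PLAUR, each lower with shUHRF1 in HCT116 and overlapping in UF1hypo. TPP1, a lysosomal peptidase (chromosome 11, 6612768 to 6619448, minus strand), was at 61.8 and 54.4, then 19.9 and 16.4 in HCT116, and 59.2 and 65.9, then 62.7 and 57.1 in UF1hypo, a difference of 1.57 ± 0.24 (limma adjusted p = 0.00915). NT5E, the ecto-nucleotidase CD73, was at 65.9 and 62.3, then 26.7 and 20.6 in HCT116, and 47.8 and 44.5, then 39.7 and 64.3 in UF1hypo, a difference of 1.54 ± 0.34 (limma adjusted p = 0.039). PSMB7, a catalytic proteasome subunit and the only called one of 31, had its larger effect in HCT116 too but moved in opposite directions, at 379 and 390, then 190 and 166 in HCT116, and 371 and 360, then 410 and 451 in UF1hypo, a difference of 1.34 ± 0.19 (limma adjusted p = 0.00685). The other 30 proteasome subunits were not called, and the list's median difference was 0.17. Of the 31, 25 lay below shScr without overlap in HCT116 (27.9% of all tested genes), and 8 were opposite, all higher in UF1hypo (6.94% of all tested genes).

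Several lists held few calls or none. DNA replication (40 tested), G2/M and mitosis (38), cytosolic ribosomal proteins (64) and DNA methylation writers and erasers (13) had no called gene, with median differences of -0.09, -0.48, -0.42 and 0.15. Of the 64 ribosomal protein genes 16, and of the 38 G2/M genes 9, moved in opposite directions without being called, all of them lower in UF1hypo, where 3.23% of all tested genes were. The counts that follow stand against 4.54% called positive and 0.559% called negative among all tested genes. Cholesterol genes had 2 called positive of 25, among them HMGCS1, an enzyme of the mevalonate pathway, with an effect of -0.06 ± 0.23 in HCT116 and a difference of 1.46 ± 0.33 (limma adjusted p = 0.0441). The lysosomal list had NPC1, SMPD1 and TPP1 called positive of 33. Of the NF-kB targets, 4 of 21 were called positive (ICAM1, IL32, LAMB3 and RELB). MAPK output genes had HBEGF and FOSL1 called positive and ETV1 called negative of 27. NRF2 targets had HMOX1 positive and ABCC2 negative of 22, oxidative phosphorylation had COX6C negative of 41, and WNT targets had SOX4 negative of 18. Opposite movement, called or not, was seen in 10.2% of all tested genes. It was seen in 3 cholesterol, 6 lysosomal, 6 NF-kB, 8 MAPK, 5 NRF2, 7 oxidative phosphorylation and 4 WNT genes. The 6 NF-kB genes were all higher in UF1hypo, and 3 of them were called (1.8% of all tested genes).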

How the data were processed

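Gene abundance tables of 8 polyA RNA-seq libraries (2 per group) were analysed. Per the labels and the study's methods, the authors used Fastp for trimming of paired-end reads, HISAT2 (2.0.4) for alignment to GRCh38 and StringTie (2.1.4) to quantify genes. The deposited tables give coverage (signal), FPKM and TPM per gene and no read counts. Dividing coverage by FPKM gave the aligned bases of each library (5.42 to 7.84 gigabases). Without counts, a TPM of 0 is given only as listed at 0. Identifiers were matched to GENCODE v44 (60463 of 60605), and 13781 of 19942 protein-coding genes were tested, each exceeding a TPM of 1 in some library. Log2(TPM + 1) was fitted with limma (3.58.1, R 4.3.3) as 4 group means with 4 residual degrees of freedom and a variance trend. The spread of each gene was taken as equal in the 4 groups. P-values were adjusted by Benjamini-Hochberg over all tested genes. The scale understates changes of low genes. Opposite means both shUHRF1 libraries above both shScr libraries in a single line and below them in the other. Tests were checked on simulated data.

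Named by rule were UHRF1, the study's 10 tumor suppressor genes, the 10 called genes with the most positive and most negative differences, the 10 opposite genes of each direction with the largest lesser effect, and up to 4 called members per list and direction. The members and lists were chosen with earlier results of these data known. Promoters came from RefSeq (GRCh38.p14). Alternatives covered pseudocount, filter, FPKM, scaling, library weights, GC and length correction, blocking on replicate number, and leaving out every library in turn. Other steps ran in Python 3.11.15 (SciPy 1.17.1, pandas 2.3.3, numpy 2.4.6, matplotlib 3.10.9). Some genes are not reported here.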

Additional observations from a re-analysis of the deposited data

Results flagged for a closer look

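The knockdown effect differed between the lines, by limma's test of the difference itself, in 702 protein-coding genes, and 248 of these moved in opposite directions in all libraries. Among genes outside the protein-coding class, which no comparison of the main analysis used, 112 had a positive difference past the same thresholds. The values that follow are differences of knockdown effects, UF1hypo minus HCT116, on the log2(TPM + 1) scale for the named genes that passed.

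Lower with shUHRF1 in HCT116 and higher in UF1hypo were OAS2 5.20, IL32 4.54, CPA4 3.91, LTBP2 3.32, CHAC1 3.24, MAGEB17 2.52, HBEGF 2.50, F3 2.48, LAT2 2.38, CD22 2.22, UPP1 2.11, JDP2 2.05 and TRIB3 2.03. Next in size were STC2 1.99, CD68 1.95, KLF2 1.95, LAMB3 1.83, RELB 1.43, FOSL1 1.43, PSMB7 1.34, CDH1 1.14 and NPC1 1.06. For some of these the fall in HCT116 was small against its SE, as for OAS2 (-0.11 ± 0.25), RELB (-0.14 ± 0.24) and CDH1 (-0.21 ± 0.15). OAS2 had a TPM of at most 0.122 in HCT116.

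Positive without opposite directions were MX1 6.74, PNMA5 6.56, KRTAP3-1 6.15, KRT17 6.14, CTAG2 6.12, SLC15A3 5.86, GPX3 5.83, GAGE2A 5.54, KRT81 5.42, UCHL1 5.28, MAGEA10 5.07, PSMB8 4.76 and XAF1 4.44. Next in size were KRT14 3.64, SLC2A3 3.28, ICAM4 2.999, KRT20 2.98, TFF2 2.94, FBLN2 2.90, DPEP1 2.56, ANKRD1 2.53, THBS1 2.38, KRT13 2.37, GATA5 2.26, ATF5 2.07 and GATA4 1.92. Smaller differences were those of CD3D 1.90, ICAM1 1.70, SMPD1 1.60, TPP1 1.57, HMGCS1 1.46 and HMOX1 1.36.

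Higher with shUHRF1 in HCT116 and lower in UF1hypo were ENSG00000288564 -3.05, SOX4 -2.70, TMSB15A -2.66, METTL7A -2.51, ARID5B -2.47, GNAI1 -2.43, ABCC2 -2.20, SELENOP -2.18, SAT1 -2.05, ENC1 -2.01, ETV1 -1.90, UTP14C -1.64 and SESTD1 -1.61. Next in size were COX6C -1.53, CDKN1A -1.23 and BTG2 -1.21. The rise of COX6C in HCT116 was small against its SE (0.19 ± 0.26). Negative without opposite directions were ANXA10 -2.65, CA9 -2.65, RAB26 -2.55, MYOM2 -2.32 and ANKRD37 -1.25. The unnamed gene ENSG00000288564 is given by its identifier, and GAGE2A, MAGEA10, KRT14 and KRT17 have near-identical relatives that can share reads.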

How the results depend on the processing

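The difference of effects rested on 2 libraries per group, known by aligned bases and not by counts, and the calls moved with single libraries. In the reported analysis 702 genes were called (625 positive, 77 negative), 248 of them opposite, with 15 ATF4 targets (12 opposite), 32 interferon-stimulated, 16 cancer-testis and 11 YAP and TGF-beta genes. A pseudocount of 0.1 gave 448 calls, 388 of them positive. Quantile normalization gave 356 positive, 117 negative and 7 YAP and TGF-beta genes. Library weights gave 419 calls (370 positive, 49 negative), 150 opposite and 5 YAP and TGF-beta genes. The correction for GC content and length gave 1060 calls, 240 negative and 418 opposite. The cause of these shifts was not tested. With the replicate number as a block, 471 genes were called (45 negative) and 149 were opposite, and ATF4 targets had 11 calls. Deviations of same-numbered libraries had correlations of -0.03 to 0.07 between groups, except for -0.47 between UF1hypo shScr and UF1hypo shUHRF1. None of these was a clear positive correlation, so the numbers were taken as names only. With a single library left out, calls ran from 171 to 2116, positive from 153 to 1376, negative from 16 to 740, opposite from 55 to 764, ATF4 targets from 4 to 19 (opposite 3 to 14), interferon-stimulated from 17 to 46, cancer-testis from 12 to 17 and YAP and TGF-beta genes from 2 to 13. The highest counts of called and of opposite genes came without UF1hypo shUHRF1 replicate 2. In such fits the group left with a single library adds no spread to the error term. These counts are thus not directly comparable with the reported ones. Of the 702 genes, 149 were called in all 8 such fits, 252 in all 12 other settings and 126 in every one, and 0 changed sign with a library left out. Of the 248 opposite genes these numbers were 31, 104 and 30.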

Other observations

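Of 5947 tested genes outside the protein-coding class, 118 were called, 112 positive and 6 negative, 84 of the called ones were lncRNAs, and 25 were opposite and called. Of the called genes, 16 were listed at 0 in every library but those of UF1hypo shUHRF1.

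The letters TGACGTCA (the cAMP response element) were present in 3.27% of promoter windows of positive genes and in 3.69% of all tested genes. CACGTG (the E-box) was present in 10.5% of the positive, 18.5% of the 54 negative and 12.5% of all windows. The median number of CG dinucleotides per window was 19 in positive genes, 22.5 in negative genes and 28 in all tested genes, given as a description with no test.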
